A study of Sus scrofa with 8 samples.

Results

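The 36 HOX genes that the deposited gene annotation names were followed in pig embryos from E16 to E28, by paralogue number, stage, breed and cell type. Members were all gene symbols made of HOX, a cluster letter from A to D and a paralogue number, and they were 36 of the 21301 genes in the matrices. The HOXA cluster contributed 8 members, HOXB 10, HOXC 9 and HOXD 9. The clusters lie on chromosomes 18, 12, 5 and 15 of Sscrofa11.1, in that order, and RefSeq gave coordinates for 33 of the members. HOXA9 is listed in the files by its identifier alone and was no member under this rule. Somites, the paired blocks of mesoderm beside the neural tube, were collected at E16, E18 and E21, and the myotome, from which skeletal muscle forms, at E28. Each stage had a library of Tibetan pigs (ZZ) and a library of the Duroc and Tibetan cross (DZ), and each library pooled 5 embryos of a single sow. The 8 libraries are written as stage and breed, for example E16-ZZ. The body level at which the tissue was taken is not given in the sources used here.

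HOX genes encode homeodomain transcription factors that give cells along the body axis their positional identity. Within a cluster, genes at the 3′ end, with low paralogue numbers, are switched on first and reach farthest towards the head. Genes at the 5′ end, with high numbers, are switched on later and mark the tail end of the trunk and the distal limb. In somites the combination of HOX genes sets the kind of vertebra and rib that forms, in the neural tube it sets motor neuron identity along the cord, and once set it is largely kept as cells differentiate.

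After quality control 74147 cells remained, with 39852689 to 57568266 UMIs per library. A UMI marks a distinct RNA molecule, and CPM is the UMIs of a gene in every 1000000 UMIs of a library or cell type. Cells were assigned to a type by a gate, here at least 3 detected markers of the type and a lead of 2 over every other type, which placed 26616 cells, and no HOX gene is in a gate. A type with fewer than 20 cells in a library was left out there, and a stage with 1 library left is given for that library alone. Tests used the UMI counts of each library, added up over its cells, with edgeR's quasi-likelihood test and Benjamini-Hochberg adjusted p, called at 0.05. Both breeds of a stage served as its replicates, so p-values measure the spread between these libraries. Stage fits within lateral plate-like, epithelial-like and fibroblast-like cells left 1 degree of freedom for the spread. Their p-values lean on spread pooled over all genes. Fewer cells of a type and less RNA per cell cannot be told apart in sums over whole libraries. E16-ZZ lost 39.2% of its barcodes to the mitochondrial limit and the others 1.05% to 9.15%. E16 is tied to another Cell Ranger version and E28 to another tissue, and these cannot be told apart from the stage.

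HOX transcripts were more abundant at the later stages. They made up 469 and 523 CPM at E16, 733 and 488 at E18, 1798 and 1259 at E21, then 1624 and 1514 at E28, with ZZ given before DZ here and below. All 4 libraries of E21 and E28 lay above all 4 of E16 and E18. Cells with at least 2000 UMIs were thinned to 2000, which left out 198 to 1370 cells per library. The share of thinned cells with a HOX UMI was 49.1 and 49.2 percent at E16, 65.1 and 51.4 at E18, 89.4 and 84.8 at E21, then 88.4 and 85.6 at E28. Without thinning it was 65.6 to 96.0% of all cells. In erythroid-like cells, blood cells outside the HOX code of the axis, the thinned share was 0 to 16.3%. Their HOX level was 17.3 to 76.1 CPM, read here as a background level. Macrophage-like cells, with enough cells at E28 alone, held 262 and 390 CPM, so this reading does not cover all blood cells. Median depth was 3405 to 6160.5 UMIs over all cells and 4133 to 13310.5 in erythroid-like cells.

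The members differed widely in level. HOXA5, a gene of the cervical and upper thoracic levels, was counted at 33.9 and 32.2 CPM at E16, 65.5 and 40.8 at E18, 319 and 231 at E21, then 358 and 317 at E28. HOXB9, of the thoracic levels, stood at 61.0 and 74.8 at E16, 129 and 67.1 at E18, 213 and 131 at E21, then 22.0 and 42.7 at E28. HOXC8, also thoracic, stood at 28.3 and 36.9 at E16, 47.8 and 14.6 at E18, 181 and 175 at E21, then 293 and 286 at E28. HOXA5 and HOXC8 were highest in the late libraries, whereas HOXB9 was highest at E21 and lowest at E28. HOXB3, HOXC12, HOXC13, HOXB13, HOXD12 and HOXB1 stayed at or below 0.772 CPM in all 8 libraries. UMIs tag the 3′ end of a transcript and were not divided by gene length, so a low level of a gene can also mean a poorly annotated 3′ end. Some members overlap in the annotation on 1 strand, such as HOXA3 with HOXA5 and HOXD9 with HOXD10, and reads shared by such a pair are uncertain.

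**Figure D1:**
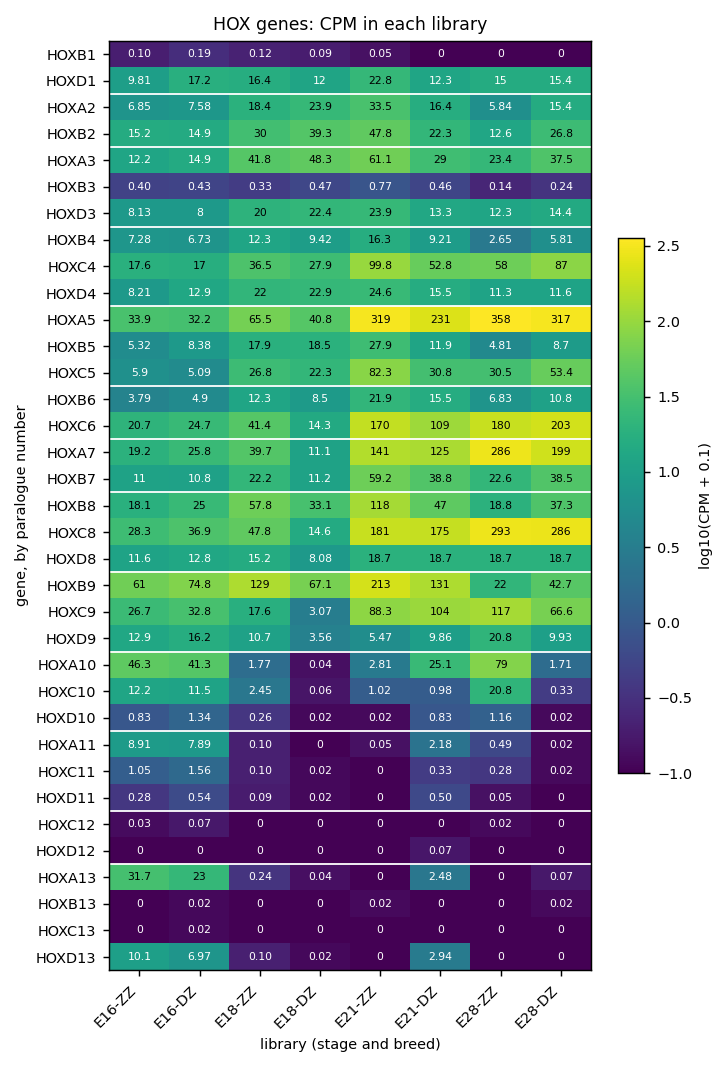
Heatmap of the level of each HOX gene reported here (rows, by paralogue number and then cluster) in each of the 8 libraries (columns), as CPM on a log colour scale. HOXA10, HOXC10, HOXA11, HOXA13 and HOXD13 are bright at E16 in both breeds and darker at E18, and HOXA5, HOXA7, HOXC6 and HOXC8 brighten from E18 to E21.

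The paralogue make-up of the HOX pool moved with stage, and the 2 libraries of a stage differed as well. The mean paralogue number over all HOX UMIs was 7.39 and 7.10 at E16, 5.94 and 4.98 at E18, 6.16 and 6.59 at E21, then 6.65 and 6.18 at E28, a description with no test. Paralogues 10 to 13 made up 23.7 and 18.0 percent at E16, 0.699 and 0.0427 at E18, 0.218 and 2.81 at E21, then 6.27 and 0.146 at E28 of HOX UMIs. The early libraries of E16 thus held the largest posterior share, and it was near 0 at E18. Paralogues 1 to 3 made up 14.1 and 15.6 percent at E16, 20.8 and 35.1 at E18, 11.5 and 7.87 at E21, then 4.43 and 7.66 at E28, with E18-DZ highest. By cluster, HOXB supplied 26.1 and 27.9 percent at E16, 38.5 and 38.5 at E18, 28.1 and 21.9 at E21, then 5.56 and 11.3 at E28 of HOX UMIs and HOXC 24.0 and 24.8 percent at E16, 23.6 and 16.8 at E18, 34.6 and 37.5 at E21, then 43.1 and 46.01 at E28. The HOXB share was lowest, and the HOXC share highest, in the E28 myotome.

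**Figure D2:**
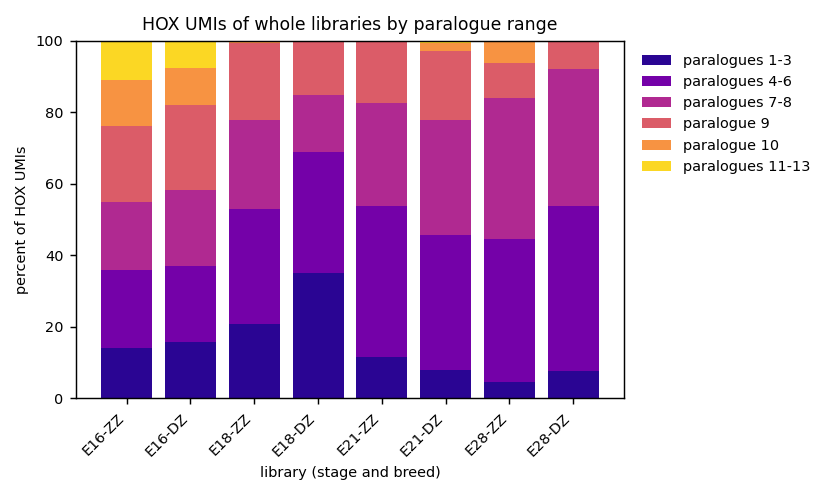
Stacked bars of the percent of HOX UMIs in each range of paralogue numbers, 1 bar per library, from 0 to 100 percent. The 10 and 11-13 bands together reach 23.7% in E16-ZZ, 18.0% for DZ of that stage and 6.27% in E28-ZZ, and stay under 3% in the other 5 libraries.

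From E16 to E18, the members called higher were anterior ones. In edgeR's quasi-likelihood test 3 of 31 members rose, against 2.04% of all 15119 genes. Only 1 of 31 fell, near the 2.67% of all genes. It passed the filter on low counts through other stages, so its fall is a description. HOXC5, of the neck levels, was at 5.90 and 5.09 CPM at E16, 26.8 and 22.3 at E18, 82.3 and 30.8 at E21, then 30.5 and 53.4 at E28, a log2 fold change of 1.99 (SE 0.41, adjusted p = 0.0464). HOXA3, a hindbrain and pharyngeal arch gene, was at 12.2 and 14.9 at E16, 41.8 and 48.3 at E18, 61.1 and 29.0 at E21, then 23.4 and 37.5 at E28, log2 1.56 (SE 0.33, adjusted p = 0.0483). HOXD3, its paralogue in the D cluster, was at 8.13 and 8.00 at E16, 19.99 and 22.4 at E18, 23.9 and 13.3 at E21, then 12.3 and 14.4 at E28, log2 1.23 (SE 0.23, adjusted p = 0.0377). For these 3 genes both E18 libraries lay above both E16 libraries. HOXA13, which marks the tail bud, hindgut and distal limb, was at 31.7 and 23.0 at E16, 0.243 and 0.0378 at E18, 0 and 2.48 at E21, then 0 and 0.0711 at E28, log2 -7.77 (SE 1.54, adjusted p = 0.0437). Its E16 levels stood far above every later library. HOXD13, with the same known territories, was at 10.1 and 6.97 CPM at E16, 0.104 and 0.0189 at E18, 0 and 2.94 at E21, then 0 and 0 at E28 and did not pass the test (log2 -7.34, SE 1.92, adjusted p = 0.0816). The median log2 fold change was 1.03 for paralogues 1 to 3, 0.82 for 4 to 6, -0.17 for 7 and 8 and -1.30 for 9, against 0.02 over all genes. Members of paralogues 10 to 13 were low at E18 and passed the filter on low counts through other stages, so no median is given for them, and a fall was the direction open to HOXA13 and HOXD13. At an unadjusted p under 0.05 17 members were found, HOXA13 among them, and DESeq2 called 12. The shares of all genes at these 2 settings are not given here, so both counts are a description. A mitochondrial limit of 5% left 0 calls and sums without blood and endothelial cells 2. Leaving out any of the 4 libraries of E16 and E18 left 0 calls.

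The posterior transcripts of E16 were located in particular cell types. Paralogues 10 to 13 made up 47.8 and 36.1 percent of HOX UMIs in lateral plate-like cells. The markers of that gate were GATA4, GATA6, HAND1, HAND2, FOXF1, TBX20, ISL1, FOXF2 and BMP4. Which part of the lateral plate the gated cells came from was not tested. Paralogues 10 to 13 made up 44.0 and 27.5 percent in endothelial-like cells and 33.1 and 23.4 percent in epithelial-like cells. In dermomyotome-like cells, the dorsal somite that yields muscle and dermis, the share was 0 and 0.576 percent, and in neural progenitor-like cells 0.442 and 0.296 percent. HOXA13 stood at 70.1 and 76.6 CPM in lateral plate-like, 43.2 and 18.8 in epithelial-like and 41.6 and 28.1 in endothelial-like cells, against 0 and 1.39 in dermomyotome-like cells. HOXA10, a gene of the lumbar levels and proximal hindlimb, stood at 89.7 and 115 in lateral plate-like and 73.3 and 46.5 in endothelial-like cells and at 0 and 0 in dermomyotome-like cells. HOXD13 was highest in epithelial-like cells, at 47.9 and 25.4, followed by 8.23 and 9.56 in lateral plate-like and 1.19 and 0.879 in endothelial-like cells. In the 20 sclerotome-like cells of E16-DZ the share of paralogues 10 to 13 was 15.1% of 73 HOX UMIs.

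The 3 types with the largest posterior share at E16 were followed to E18. HOXA13, HOXA11 and HOXD13, and HOXA10 in endothelial-like cells, passed the filter on low counts in them through E16. Their falls, and the counts of falls that hold them, are a description. In endothelial-like cells 3 of 23 members fell and 0 rose, against 2.78% of all genes. There HOXA13 was at least 55.7-fold higher at E16 over both breeds (366 UMIs against 0), HOXA10 94.9-fold (exact 95% interval 32.3 to 461) and HOXA11 58.8-fold (exact 95% interval 10.4 to 2342) higher, intervals that cover counting error only. In lateral plate-like cells 4 of 27 members fell and 7 rose, against 9% of all genes. HOXD13 there had 128 UMIs against 0, at least 16.9-fold higher at E16, and HOXA13 was at 70.1 and 76.6 CPM at E16 and 1.90 and 0.397 at E18. HOXC10 in lateral plate-like cells did not pass (log2 -2.43, SE 0.72, adjusted p = 0.0811). Among the members that rose were HOXA2, HOXA3, HOXB2, HOXB5, HOXC4 and HOXC5. HOXC5 in lateral plate-like cells was at 1.35 and 2.88 CPM at E16 and 19.9 and 25.4 at E18, log2 3.28 (SE 0.32, adjusted p = 0.00820). In epithelial-like cells 7 members fell and 10 rose, against 9.88% of all genes. The epithelial-like gate held 568 and 817 cells at E16 and 122 and 54 at E18. Whether it held the same tissue at both stages was not tested. HOXD13 there was at least 21.4-fold and HOXA13 at least 17.8-fold higher at E16. HOXD1 rose most, at 2.19 and 4.16 CPM at E16, 84.9 and 29.7 at E18, then 0 in E21-ZZ alone in epithelial-like cells, log2 3.90 (SE 0.36, adjusted p = 7.43e-24). This p leans on spread pooled over all genes, and the E18 libraries lay far apart.

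PITX1 and TBX4, known from the hindlimb, fell at the same step in whole libraries, and the cell types that held them are not given here. PITX1, a hindlimb factor, was at 69.7 and 61.6 CPM at E16, 14.7 and 11.15 at E18, 7.40 and 12.6 at E21, then 23.2 and 16.4 at E28, log2 -2.51 (SE 0.34, adjusted p = 0.0208). TBX4, also of the hindlimb, was at 2.53 and 2.66 at E16, 0.243 and 0.322 at E18, 0.0681 and 0.109 at E21, then 0 and 0 at E28, log2 -3.37 (SE 0.44, adjusted p = 0.0235). Of the 4 tested members of the limb and level list 2 fell from E16 to E18, against 2.67% of all genes, and 0 rose, against 2.04%. CDX2, a tail bud activator of HOX genes, was at 9.86 and 10.1 CPM at E16, 3.51 and 1.44 at E18, 0 and 0.0218 at E21, then 0 and 0 at E28 and did not pass the test (log2 -2.29, SE 0.46, adjusted p = 0.0514). PITX1, TBX4 and CDX2 were each highest at E16, and their part in the HOX result was not tested. Whether E16 and E18 tissue covered the same stretch of the body cannot be told apart from a change with age.

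Neural crest and glia-like cells gained HOX transcripts over the same step. Their HOX level was 138 and 134.03 CPM at E16 and 743 and 529 at E18, and 9 of 20 members rose and 0 fell, against 4.35% of all genes. HOXB6 and HOXA7 had at most 3 UMIs at E16 there and passed the filter on low counts through later stages. Their rises, and the count that holds them, are a description. HOXC4 was at 3.63 and 1.13 CPM at E16, 48.9 and 34.0 at E18, 64.4 and 39.2 at E21, then 25.7 and 50.7 at E28 in these cells, log2 3.90 (SE 0.54, adjusted p = 0.000287). HOXB9 was at 14.5 and 21.4 at E16, 196 and 118 at E18, 387 and 338 at E21, then 309.8 and 228 at E28, log2 2.89 (SE 0.27, adjusted p = 4.19e-06). For both genes the E18 libraries lay above the E16 libraries. In dermomyotome-like cells 1 of 18 members was called at this step, against 3.32% of all genes. It was HOXB9, which fell there, at 177 and 180.3 CPM at E16, 111 and 22.6 at E18, then 30.3 and 51.1 at E21, log2 -1.78 (SE 0.32, adjusted p = 0.00146).

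From E18 to E21, 7 of 31 members rose and 0 fell, against 10.7% of all genes that rose. They were HOXC4, HOXA5, HOXC6, HOXA7, HOXB7, HOXC8 and HOXC9, so all lay between paralogues 4 and 9. The median log2 fold change was -0.08 for paralogues 1 to 3, 0.89 for 4 to 6, 1.47 for 7 and 8 and 0.71 for 9, against 0.01 over all genes. Members of paralogues 10 to 13 were low at E18 and passed the filter on low counts through other stages, so no median is given for them. HOXC9, a lower thoracic gene, was at 26.7 and 32.8 CPM at E16, 17.6 and 3.07 at E18, 88.3 and 104 at E21, then 117 and 66.6 at E28, a log2 fold change of 3.38 (SE 0.68, adjusted p = 0.0178). HOXC8 had a log2 fold change of 2.51 (SE 0.47, adjusted p = 0.0143). HOXA7, of the thoracic levels, was at 19.2 and 25.8 at E16, 39.7 and 11.05 at E18, 141 and 125 at E21, then 286 and 199 at E28, log2 2.44 (SE 0.49, adjusted p = 0.0176). HOXA5 had a log2 fold change of 2.29 (SE 0.16, adjusted p = 0.00108), the lowest p among the members. HOXC6, at the border of neck and thorax, was at 20.7 and 24.7 CPM at E16, 41.4 and 14.3 at E18, 169.9 and 109 at E21, then 180.3 and 203 at E28, log2 2.29 (SE 0.40, adjusted p = 0.0118). For each of these 5 genes both E21 libraries lay above both E18 libraries, and E18-DZ was the lowest of the 4. HOXA5 stayed called in all 8 fits that left out a library. Without E18-DZ 4 members were called, and without E21-DZ 4. HOXA9, followed by its identifier, was at 58.8 and 52.3 CPM at E16, 23.0 and 2.16 at E18, 84.4 and 82.6 at E21, then 113 and 61.4 at E28 (ENSSSCG00000028997).

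The 7 members that rose in whole libraries were called higher in some cell types and not in others. HOXC8 was called higher at E21 in 8 of 9 types tested, HOXA5 in 7 of 9, HOXA7 in 7 of 9, HOXC6 in 7 of 10, HOXB7 in 6 of 9, HOXC9 in 5 of 9 and HOXC4 in 4 of 9. Some members had at most 3 UMIs at E18 and passed the filter on low counts through later stages, namely HOXB7, HOXC6 and HOXC8 in myocyte-like cells, HOXA10, HOXD1 and HOXD8 in neuron-like cells, HOXA10 in sclerotome-like cells and HOXC8 in myogenic progenitor and myoblast-like cells, so their rises, and the counts that hold them, are a description. Dermomyotome-like cells had 7 members higher and 1 lower of 18 tested, against 4.69% of all genes. The lower member was HOXB2, with 2 UMIs at E21, which passed the filter through earlier stages, so its fall is a description. In sclerotome-like cells, the source of vertebrae and ribs, 9 were higher and 1 lower of 22, against 9.49%. Chondrocyte-like cells had 6 higher and 0 lower of 21, against 4.06%. For neural progenitor-like cells 13 of 20 were higher and 0 lower, against 11.2%, and for neuron-like cells 11 were higher and 2 lower of 22, against 16.2%. Neural crest and glia-like cells had 10 higher and 4 lower, against 19.3%. In myocyte-like cells 6 of 15 were higher and 0 lower, against 12.5%, and in myogenic progenitor and myoblast-like cells 1 was higher and 2 lower of 21, against 1.37%. Endothelial-like cells had 0 higher and 1 lower of 23, against 8.2%.

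**Figure D3:**
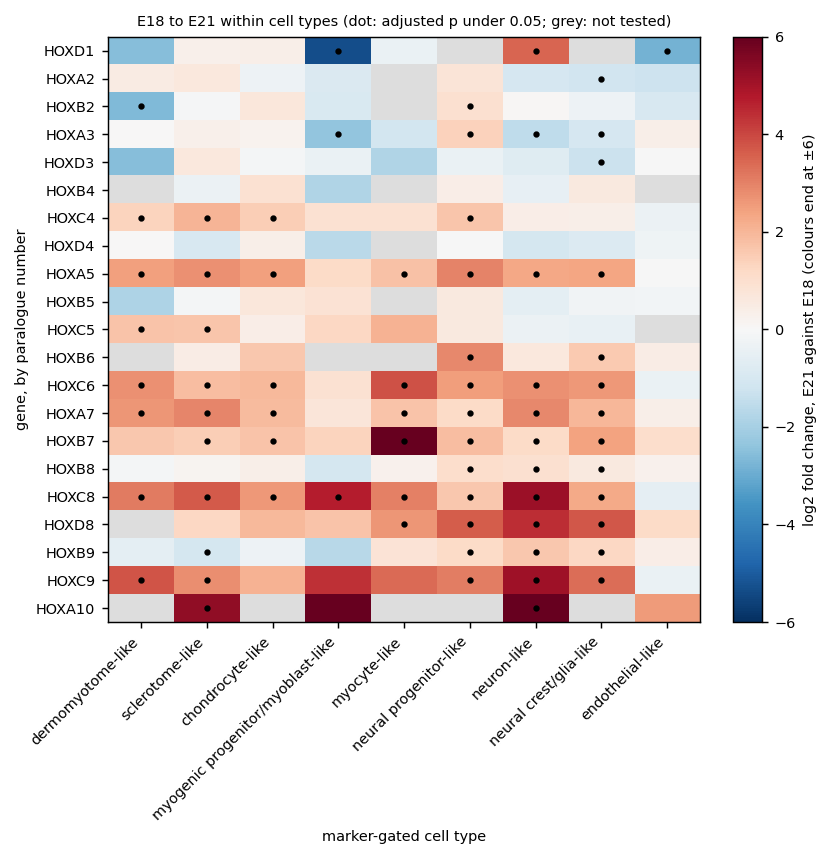
Heatmap of the log2 fold change from E18 to E21 of each HOX gene reported here that was tested in at least 3 types (rows, by paralogue number) in 9 gated cell types (columns), where a dot marks an adjusted p under 0.05 and grey cells were not tested. HOXA5, HOXC6, HOXA7 and HOXC8 carry dots across most columns, and HOXA3 is negative in neuron-like and crest and glia-like cells.

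In dermomyotome-like cells HOXC9 was at 12.1 and 20.8 CPM at E16, 12.5 and 0 at E18, then 41.7 and 121 at E21, log2 3.76 (SE 0.69, adjusted p = 0.000877). HOXC8 there was at 48.6 and 62.4 at E16, 38.8 and 1.70 at E18, then 136 and 176 at E21, log2 3.11 (SE 0.51, adjusted p = 0.000217), and HOXC6 gave log2 2.73 (SE 0.42, adjusted p = 9.43e-05). For HOXC9 and HOXC8 the E18-DZ value was the lowest of the dermomyotome-like sums. HOXB2, a hindbrain gene, went down in these cells, from 95 UMIs at E18 to 2 at E21, 6.92-fold (exact 95% interval 1.86 to 58.0) higher in CPM at E18. It passed the filter on low counts through earlier stages, so its fall is a description.

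In sclerotome-like cells HOXC8 was at 20.8 CPM in E16-DZ alone, 19.6 and 4.08 at E18, 109 and 229.9 at E21, then 746 and 749 at E28, log2 3.66 (SE 0.33, adjusted p = 5.10e-16), and HOXA7 was at 72.8 in E16-DZ alone, 36.3 and 5.44 at E18, 132 and 216 at E21, then 331 and 360.0 at E28, log2 2.93 (SE 0.29, adjusted p = 1.02e-13). HOXA10 had 12 UMIs against 0, at least 5.99-fold higher at E21, with all of its UMIs in the DZ library. HOXB9 was the member called lower in sclerotome-like cells (log2 -1.04, SE 0.30, adjusted p = 0.0142), and it turned positive when E18-ZZ was left out (log2 0.43).

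Nervous tissue took part in this step as well. In neuron-like cells HOXC8 was at 14.6 CPM in E16-DZ alone, 20.9 and 6.31 at E18, 455 and 402 at E21, then 193 and 209 at E28, log2 5.13 (SE 0.35, adjusted p = 9.24e-09), and HOXC9 was at 0 in E16-DZ alone, 20.9 and 3.16 at E18, 253 and 394 at E21, then 169 and 145 at E28, log2 5.07 (SE 0.45, adjusted p = 2.20e-07). HOXA10 in neurons had 98 UMIs against 0, at least 2.75-fold higher at E21. HOXA3 fell there, at 43.9 CPM in E16-DZ alone, 101 and 123 at E18, 57.0 and 33.4 at E21, then 0 and 2.75 at E28, log2 -1.50 (SE 0.30, adjusted p = 0.00131). In neural progenitor-like cells HOXA5 was at 30.9 and 34.6 at E16, 48.2 and 64.8 at E18, then 499.6 and 372 at E21, log2 2.97 (SE 0.22, adjusted p = 4.03e-12), and HOXD8 gave log2 3.64 (SE 0.64, adjusted p = 9.76e-05). HOXC9 gave log2 3.08 (SE 0.33, adjusted p = 1.47e-08). In crest and glia-like cells HOXD8 (log2 3.71, SE 0.46, adjusted p = 4.39e-06), HOXC9 (log2 3.37, SE 0.44, adjusted p = 1.02e-05) and HOXC6 (log2 2.58, SE 0.24, adjusted p = 9.96e-08) changed most upwards. HOXD3 (log2 -1.28, SE 0.33, adjusted p = 0.00814) fell.

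Muscle cells were compared over the same step. HOXC8 in myogenic progenitor and myoblast-like cells went from 2 UMIs at E18 to 607 at E21, 24.3-fold (exact 95% interval 6.69 to 201) higher in CPM. HOXD1 fell in the same cells, at 37.3 and 73.1 CPM at E18, 2.63 and 0 at E21, then 1.14 and 0.236 at E28, log2 -5.33 (SE 0.95, adjusted p = 0.0102), and HOXA3 fell as well (log2 -2.35, SE 0.47, adjusted p = 0.0213). The gate held only 26 and 31 cells at E18, against 418 and 371 at E21. In myocyte-like cells, which have left the cell cycle and express myosins, HOXB7 had 36 UMIs against 0, at least 5.15-fold higher at E21. HOXC6 in myocyte-like cells was 13.3-fold (exact 95% interval 2.22 to 542) and HOXC8 7.29-fold (exact 95% interval 1.87 to 62.7) higher at E21. Over all types and steps 150 of 508 member tests were called, 102 higher and 48 lower, against 6.07% of the tests of all genes, and without E18-DZ 92 were called. These totals hold members whose direction was fixed by the filter, among them those above, and are a description. DESeq2 called 68, and 43 were called after thinning cells to 2000 UMIs.

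For members with RefSeq coordinates, the 250 bases before the start of the gene on Sscrofa11.1 were read. HOX genes are known targets of CDX factors and of HOX and PBX pairs. Windows could be read for 33 members, and 10 of them overlapped an annotated exon and are not shown. The CDX-type letters TTTATNG, searched on both strands, stood in 5 of 33 member windows and in 8.55% of 19556 windows of all genes. The 5 were those of HOXB3, HOXB13, HOXC5, HOXC12 and HOXD8. None of the members that rose from E18 to E21 in whole libraries had a CDX-type match. The HOX-PBX-type letters TGATTNAT stood in 0 of 33 member windows and in 2.03% of all windows. No match says only that these letters are not in this window. HOXD8 (chr15:81930673-81930922, + strand) is shown with the CDX-type match in capitals. It was not called from E18 to E21 in whole libraries and was called higher in 4 cell types, in neuron-like cells as a description. HOXA7 (chr18:45416887-45417136, + strand) and HOXC9 (chr5:19212240-19212489, + strand), which rose at E21, are shown without a match.
HOXD8: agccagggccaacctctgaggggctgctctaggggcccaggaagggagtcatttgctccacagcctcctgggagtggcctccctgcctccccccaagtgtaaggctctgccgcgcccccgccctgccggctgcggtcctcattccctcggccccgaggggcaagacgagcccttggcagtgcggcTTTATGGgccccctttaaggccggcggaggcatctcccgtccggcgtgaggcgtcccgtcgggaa
HOXA7: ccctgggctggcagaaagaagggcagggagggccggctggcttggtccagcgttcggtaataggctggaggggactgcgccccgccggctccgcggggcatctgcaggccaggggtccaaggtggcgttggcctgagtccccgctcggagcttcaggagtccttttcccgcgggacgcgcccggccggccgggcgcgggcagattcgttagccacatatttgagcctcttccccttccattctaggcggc
HOXC9: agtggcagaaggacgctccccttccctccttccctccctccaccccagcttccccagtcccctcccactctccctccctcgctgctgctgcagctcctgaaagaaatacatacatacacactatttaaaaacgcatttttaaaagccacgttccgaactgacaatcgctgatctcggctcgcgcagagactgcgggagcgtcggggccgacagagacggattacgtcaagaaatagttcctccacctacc
The match lay at position -65 from the gene start in the HOXD8 window. It is a description of letters, not of a bound site.

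From E21 to E28, where somites were followed by myotome, 1 of 31 members changed in whole libraries. HOXB9 fell (log2 -2.40, SE 0.41, adjusted p = 0.0204), against 4.23% of all genes that fell, and both E28 libraries lay below both E21 libraries. DESeq2 called 6 members, all lower, a count given without the share of all genes, and edgeR called 0 members without E28-ZZ. Within cell types HOXA7 and HOXC8 rose in 3 connective and skeletal types. Sclerotome-like cells had 4 members higher and 0 lower, against 2.74% of all genes, with HOXC6 at 52.0 CPM in E16-DZ alone, 49.1 and 15.0 at E18, 129 and 104 at E21, then 551 and 584 at E28, log2 2.22 (SE 0.23, adjusted p = 3.14e-12). In the same cells HOXC8 gave log2 2.10 (SE 0.23, adjusted p = 1.79e-11) and HOXA7 log2 0.92 (SE 0.26, adjusted p = 0.0280). HOXA5, the fourth, kept its call only without E16-ZZ, which had too few sclerotome-like cells, so that fit was unchanged. It lost its call in the other 7 fits that left out a library. HOXA7 kept its call in 4 of 8, the unchanged fit among them. Chondrocyte-like cells had 3 higher and 2 lower, against 6.75%, with HOXA7 at 6.68 and 7.97 CPM at E16, 46.8 and 21.2 at E18, 87.1 and 121 at E21, then 386 and 242 at E28, log2 1.51 (SE 0.25, adjusted p = 0.000255). HOXC8 (log2 1.34, SE 0.31, adjusted p = 0.00676) and HOXA5 (log2 0.81, SE 0.19, adjusted p = 0.00806) were the other two that rose, and HOXA2 (log2 -1.25, SE 0.36, adjusted p = 0.0348) and HOXC5 (log2 -1.14, SE 0.33, adjusted p = 0.0332) fell. Fibroblast-like cells had 5 higher and 1 lower of 24, against 9.59%. HOXC10 in fibroblast-like cells was at 0 CPM in E18-DZ alone, 0.605 and 0.987 at E21, then 27.1 and 0.248 at E28, so E28-DZ lay below both E21 libraries, and the gene passed the filter through E28-ZZ, so its call, which is among the 5, is a description. HOXC8 (log2 1.24, SE 0.20, adjusted p = 0.000314) and HOXA7 (log2 1.19, SE 0.19, adjusted p = 0.000411) rose and HOXB9 (log2 -1.63, SE 0.29, adjusted p = 0.000859) fell in these cells.

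In muscle progenitors and neurons the called members mostly fell. In myogenic progenitor and myoblast-like cells 4 members were lower and 0 higher at E28, against 3.02% of all genes. HOXA5 there was at 51.3 and 54.8 CPM at E18, 114 and 92.0 at E21, then 47.9 and 31.1 at E28, log2 -1.46 (SE 0.21, adjusted p = 0.00106). HOXB8 (log2 -2.88, SE 0.60, adjusted p = 0.0149) fell further on the log2 scale, and HOXB9 gave log2 -2.72 (SE 0.58, adjusted p = 0.0175). Neuron-like cells had 12 lower and 1 higher, against 9.27%. Some of them, HOXA3 and HOXA2 included, had at most 3 UMIs at E28 and passed the filter on low counts through earlier stages. Their falls, and the count that holds them, are a description. HOXA3 in neurons (547 UMIs against 3) was 23.0-fold (exact 95% interval 7.82 to 112) and HOXA2 (281 UMIs against 2) 17.7-fold (exact 95% interval 4.85 to 147) higher at E21. HOXD1, an anterior gene known in sensory neurons, was the member that rose in neuron-like cells, at 0 CPM in E16-DZ alone, 0 and 1.58 at E18, 14.5 and 12.8 at E21, then 69.0 and 82.6 at E28, log2 2.45 (SE 0.33, adjusted p = 3.38e-05). Both E28 values of HOXD1 lay above both of E21.

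HOXD1 was high in early muscle cells. In myocyte-like cells it was at 72.9 and 84.6 CPM at E18, 48.9 and 51.6 at E21, then 21.9 and 15.8 at E28 and fell from E21 to E28 (log2 -1.59, SE 0.34, adjusted p = 0.00225). Myogenic progenitor and myoblast-like cells held 37.3 and 73.1 at E18, 2.63 and 0 at E21, then 1.14 and 0.236 at E28. Its progenitor levels dropped to near 0 after E18, whereas all 6 myocyte-like sums held it. In endothelial-like cells it was at 10.8 and 27.0 CPM at E16, 41.5 and 43.2 at E18, 5.79 and 6.01 at E21, then 1.44 and 2.98 at E28 and fell from E18 to E21 (log2 -2.86, SE 0.48, adjusted p = 0.00419). HOXA3 also fell in myocyte-like cells from E21 to E28 (log2 -2.13, SE 0.48, adjusted p = 0.00462) and in crest and glia-like cells (log2 -1.72, SE 0.43, adjusted p = 0.0362).

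Cell types of the same library were then compared with the library as a block, so that stage, breed and capture were shared. Sclerotome-like and dermomyotome-like cells, the ventral and dorsal parts of the somite, had 0 of 21 members called in 5 libraries, against 5.46% of all genes. At an unadjusted p under 0.05 4 members were found, a count given without the share of all genes, and DESeq2 called 0. HOXD4 for example averaged 20.2 ± 11.05 in sclerotome-like and 24.6 ± 5.90 CPM in dermomyotome-like cells (SD, n = 5, log2 -0.16, SE 0.30). A p that misses the threshold does not show that the 2 parts were alike.

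Neural progenitor-like cells carried more of several members than the dermomyotome-like cells beside them. In 6 libraries 7 of 22 members were higher, against 10.7% of all genes, and 2 were lower, against 12.5%. After thinning 7 members were still tested and 1 called. HOXB8, of the thoracic levels, was at 47.7 and 57.1 CPM at E16, 93.2 and 106 at E18, then 269 and 124 at E21 in neural progenitor-like cells and 38.9 and 40.2 at E16, 38.2 and 12.4 at E18, then 30.3 and 13.9 at E21 in dermomyotome-like cells, higher in 6 of 6 libraries (log2 1.73, SE 0.28, adjusted p = 8.23e-05). HOXB9 averaged 334 ± 191 against 95.4 ± 71.6 CPM (SD, n = 6 libraries, log2 1.58, SE 0.37, adjusted p = 0.00371), higher in 5 of 6. HOXD4 averaged 56.5 ± 15.4 against 23.4 ± 6.13 CPM (SD, n = 6 libraries, log2 1.23, SE 0.19, adjusted p = 6.60e-05). HOXD3, HOXB2, HOXA2 and HOXC6 were the other called members, with log2 fold changes from 0.71 to 0.93. In the opposite direction HOXC5 averaged 17.1 ± 12.5 against 58.0 ± 67.8 CPM (SD, n = 6 libraries, log2 -1.54, SE 0.31, adjusted p = 0.00101) and HOXD1 6.67 ± 3.36 against 14.5 ± 12.8 CPM (SD, n = 6 libraries, log2 -1.52, SE 0.43, adjusted p = 0.0138).

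Lateral plate-like cells differed from dermomyotome-like cells in both directions. In 4 libraries of E16 and E18, 8 of 27 members were higher than in dermomyotome-like cells, against 11.7% of all genes, and 6 were lower, against 6.22%. The higher ones were HOXD8, HOXC9, HOXD9, HOXA10, HOXC10, HOXA11, HOXA13 and HOXD13, and the lower ones included HOXA3, HOXD3, HOXD4, HOXA7 and HOXB9. HOXA10, HOXC10, HOXA11, HOXA13 and HOXD13 had at most 2 UMIs in the dermomyotome-like sums and passed the filter on low counts through the lateral plate-like ones, so the count of higher members is a description. After thinning cells to 2000 UMIs 2 members were still tested and 0 called. At E16, which held nearly all UMIs of these genes, HOXA10 had 1476 UMIs against 0, at least 38.9-fold higher in CPM, HOXA13 had 1054 UMIs against 1, 83.4-fold (exact 95% interval 14.9 to 3296) higher and HOXA11 327 UMIs against 1, 25.9-fold (exact 95% interval 4.61 to 1025) higher. Among the lower members HOXD3 averaged 6.73 ± 2.52 against 22.0 ± 5.95 CPM (SD, n = 4 libraries, log2 -1.66, SE 0.26, adjusted p = 0.000516), HOXD4 6.80 ± 2.18 against 22.4 ± 7.38 CPM (SD, n = 4 libraries, log2 -1.65, SE 0.27, adjusted p = 0.000803) and HOXB9 37.9 ± 25.4 against 123 ± 74.1 CPM (SD, n = 4 libraries, log2 -1.60, SE 0.29, adjusted p = 0.00160). These 3 genes were lower in 4 of 4 libraries.

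Endothelial-like cells carried less of most members. In 6 libraries 13 of 24 members were lower than in dermomyotome-like cells, against 18.6% of all genes, and 3 were higher, against 23.9%. After thinning 3 members were still tested and 1 called. HOXC5 averaged 1.36 ± 1.27 against 58.0 ± 67.8 CPM (SD, n = 6 libraries, log2 -4.43, SE 0.36, adjusted p = 1.82e-07). HOXC8 averaged 5.74 ± 4.47 against 77.4 ± 65.7 CPM (SD, n = 6 libraries, log2 -3.08, SE 0.39, adjusted p = 1.85e-05) and HOXC4 5.38 ± 3.01 against 48.4 ± 33.0 CPM (SD, n = 6 libraries, log2 -2.95, SE 0.33, adjusted p = 4.91e-06). All 3 were lower in 6 of 6 libraries. On the other side HOXA13 was counted at E16 alone, with 366 UMIs against 1, 37.7-fold (exact 95% interval 6.72 to 1491) higher there, and it was higher in 2 of 6 libraries and at 0 on both sides in the others, so it passed the filter through the endothelial-like sums and its call is a description. Of the other higher members HOXD8 averaged 9.42 ± 6.95 against 4.48 ± 3.21 CPM (SD, n = 6 libraries, log2 1.21, SE 0.38, adjusted p = 0.0182) and HOXD1 22.4 ± 17.3 against 14.5 ± 12.8 CPM (SD, n = 6 libraries, log2 0.90, SE 0.34, adjusted p = 0.0481).

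Within the nervous system, crest derivatives held less HOX RNA than progenitors. Neural crest and glia-like cells had 13 of 22 members lower and 0 higher than neural progenitor-like cells in 6 libraries, against 13.3% of all genes. After thinning 11 were still tested and 1 called. HOXD4 averaged 17.5 ± 8.29 against 56.5 ± 15.4 CPM (SD, n = 6 libraries, log2 -1.46, SE 0.23, adjusted p = 0.000206) and HOXC6 35.3 ± 40.9 against 95.6 ± 109 CPM (SD, n = 6 libraries, log2 -1.31, SE 0.14, adjusted p = 6.61e-06). Both were lower in 6 of 6 libraries. Neuron-like cells had 2 of 21 members higher than neural progenitor-like cells in 5 libraries, against 16.5% of all genes, and 1 lower, against 14.1%, so the shares of members called were below those of all genes. HOXB5 averaged 47.2 ± 25.7 against 21.9 ± 4.58 CPM (SD, n = 5 libraries, log2 1.23, SE 0.31, adjusted p = 0.0109) and HOXB7 69.9 ± 51.3 against 38.6 ± 29.1 CPM (SD, n = 5 libraries, log2 0.95, SE 0.31, adjusted p = 0.0344), both higher in 4 of 5 libraries. HOXD4 averaged 23.7 ± 14.2 against 62.1 ± 7.26 CPM (SD, n = 5 libraries, log2 -1.40, SE 0.27, adjusted p = 0.00220) and was lower in 5 of 5.

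Chondrocyte-like and fibroblast-like cells held more HOX RNA than muscle progenitors of the same library at E21 and E28. The level of all HOX genes was 772 and 435 CPM at E18, 1159 and 1119 at E21, then 1704 and 1854 at E28 in chondrocyte-like cells, 478 in E18-DZ alone, 1148 and 912 at E21, then 1732 and 1715 at E28 in fibroblast-like cells and 821 and 378 at E18, 772 and 669.7 at E21, then 619 and 530.4 at E28 in myogenic progenitor and myoblast-like cells. In E18-ZZ the chondrocyte-like level was the lower one. Chondrocyte-like cells had 15 of 23 members higher and 0 lower in 6 libraries, against 13.9% of all genes. HOXB9 averaged 79.0 ± 43.9 against 24.4 ± 36.7 CPM (SD, n = 6 libraries, log2 2.97, SE 0.50, adjusted p = 0.000934) and HOXB6 14.8 ± 7.22 against 3.51 ± 3.23 CPM (SD, n = 6 libraries, log2 2.70, SE 0.31, adjusted p = 5.40e-05), both higher in 6 of 6. HOXD1 averaged 24.2 ± 13.3 against 19.1 ± 30.2 CPM (SD, n = 6 libraries, log2 3.39, SE 0.91, adjusted p = 0.0166) and was higher in 4 of 6, with the E18 libraries on the other side. Fibroblast-like cells had 13 of 24 higher and 0 lower in 5 libraries, against 16.1%. HOXA5 was at 8.69 CPM in E18-DZ alone, 273 and 226 at E21, then 411 and 447 at E28 in fibroblast-like cells and 51.3 and 54.8 at E18, 114 and 92.0 at E21, then 47.9 and 31.1 at E28 in the muscle gate (log2 2.19, SE 0.47, adjusted p = 0.00708). HOXA10 was at 0 CPM in E18-DZ alone, 1.81 and 18.8 at E21, then 119.8 and 3.72 at E28 in fibroblast-like cells and 0 and 0 at E18, 0.878 and 6.92 at E21, then 20.7 and 0.118 at E28 in the muscle gate (log2 2.29, SE 0.34, adjusted p = 0.00143). E28-ZZ was far above the other libraries on both sides, and HOXA10 kept its call in 7 of 8 fits that left out a library but not without E28-ZZ. The fits without E16-ZZ, E16-DZ or E18-ZZ, which did not enter this comparison, were unchanged. HOXD9 averaged 15.7 ± 7.77 against 2.79 ± 2.96 CPM (SD, n = 5 libraries, log2 2.28, SE 0.33, adjusted p = 0.000893). Without E28-ZZ 5 members were called in fibroblast-like cells and without E28-DZ 8.

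**Figure D4:**
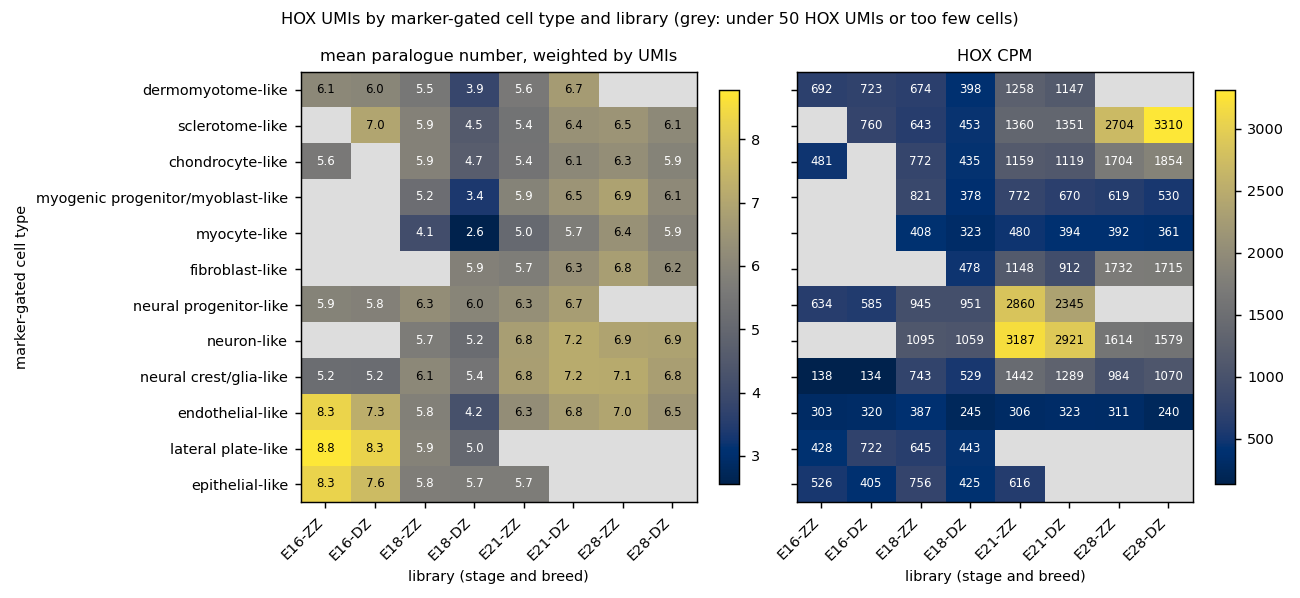
Panels of the mean paralogue number and of the HOX level (CPM) in 12 gated cell types (rows) and 8 libraries (columns), where grey marks a sum with fewer than 50 HOX UMIs or too few cells. Lateral plate-like, epithelial-like and endothelial-like cells reach mean paralogue numbers of 7.25 to 8.78 at E16, and the highest HOX level is that of sclerotome-like cells in E28-DZ, 3310.5 CPM.

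Between the breeds 0 of 31 members were called over the 4 stages, and 0% of all 15119 genes were. At an unadjusted p under 0.05 1 member and 914 genes were found, and DESeq2 called 0 members and 57 genes. At single stages, where each breed had 1 library and no test can be made, several members differed, with intervals that cover counting error only. A member was named if it differed over 4-fold and had at least 50 UMIs over both libraries, and at E16 none did. Members with at most 3 UMIs in a library passed through the other, so the counts that hold them are a description. At E18, 3 of 24 members were higher in ZZ, against 0.221% of all genes. HOXA10 had 102 UMIs in E18-ZZ against 2 in E18-DZ, 46.8-fold (exact 95% interval 12.6 to 392) higher in CPM in ZZ. HOXC10, also of the lumbar levels, had 141 UMIs in E18-ZZ against 3 in E18-DZ, 43.1-fold (exact 95% interval 14.5 to 212) higher in CPM in ZZ. HOXC9 had 1011 UMIs in E18-ZZ against 162 in E18-DZ, 5.73-fold (exact 95% interval 4.85 to 6.80) higher in CPM in ZZ. All 3 were higher in the Tibetan library.

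At E21, 4 of 28 members were higher in DZ, against 0.716% of all genes, again a description. HOXA10 had 1154 UMIs in E21-DZ against 124 in E21-ZZ, 8.93-fold (exact 95% interval 7.41 to 10.8) higher in CPM in DZ. HOXA11 had 100 UMIs in E21-DZ against 2 in E21-ZZ, 48.0-fold (exact 95% interval 12.9 to 402) higher in CPM in DZ. HOXA13 had 114 UMIs in E21-DZ against 0 in E21-ZZ, at least 36.5-fold higher in CPM in DZ, and HOXD13 had 135 UMIs in E21-DZ against 0 in E21-ZZ, at least 43.2-fold higher in CPM in DZ. At E28 the side changed again, with 3 of 25 members higher in ZZ, against 0.497%. HOXA10 had 3399 UMIs in E28-ZZ against 72 in E28-DZ, 46.3-fold (exact 95% interval 36.7 to 59.3) higher in CPM in ZZ. HOXC10 had 893 UMIs in E28-ZZ against 14 in E28-DZ, 62.6-fold (exact 95% interval 37.1 to 115) higher in CPM in ZZ, and HOXD10 had 50 UMIs in E28-ZZ against 1 in E28-DZ, 49.0-fold (exact 95% interval 8.41 to 1976) higher in CPM in ZZ. HOXA10 thus lay on the ZZ side at E18 and E28 and on the DZ side at E21.

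**Figure D5:**
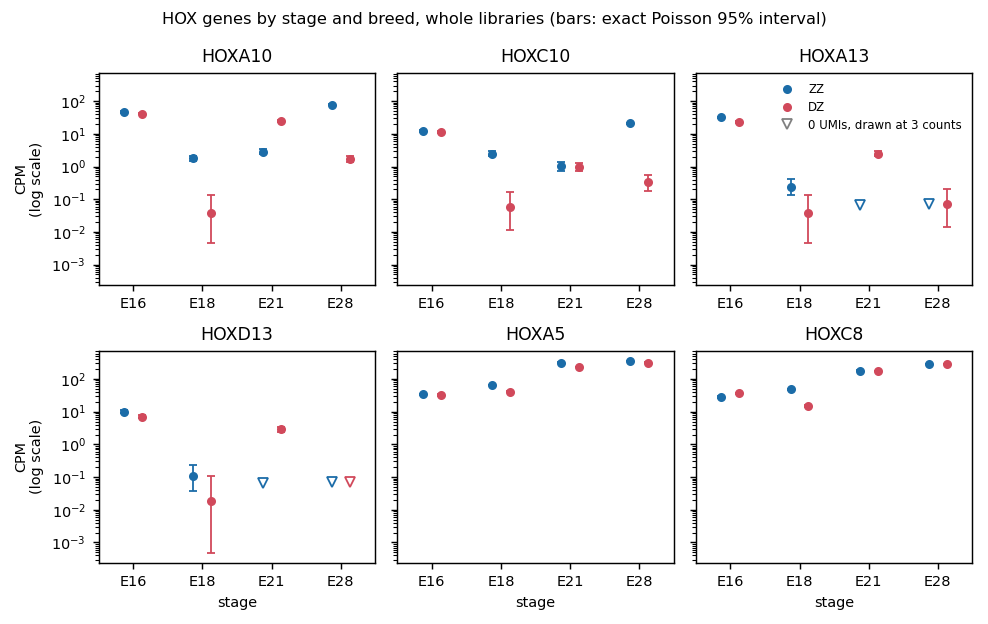
Levels of HOXA10, HOXC10, HOXA13, HOXD13, HOXA5 and HOXC8 in CPM (log axis) by stage, with ZZ and DZ as separate points, exact 95% Poisson intervals as bars, and open triangles drawn at 3 counts for libraries with 0 UMIs. The breeds lie together at E16, and HOXA10 is higher in ZZ at E18 and E28 and in DZ at E21, whereas HOXA5 differs by 1.61-fold at most.

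From E18 to E28 the cell types of a library shared a direction for HOXC9. Among types with at least 10 HOXC9 UMIs in the pair, HOXC9 was higher in ZZ in 7 of 7 at E18, in DZ in 9 of 9 at E21 and in ZZ in 7 of 7 at E28. At E16 HOXC9 was higher in ZZ in 1 type and in DZ in 3. HOXA10 was higher in DZ in 7 of 7 types at E21 and in ZZ in 3 of 3 at E28, with 119.8 and 3.72 CPM in fibroblast-like and 20.7 and 0.118 in myogenic progenitor and myoblast-like cells. At E16 HOXA10 was higher in ZZ in 2 types and in DZ in 1, and at E18 1 type had enough UMIs. Some other members were one-sided too, such as HOXA7 at E18, higher in ZZ in 11 of 11 types, and HOXA3, higher in ZZ in 10 of 10 at E21 and in DZ in 7 of 7 at E28. Others split between types. At E21 HOXB7 was higher in ZZ over the whole library and in DZ in 7 of 10 types, HOXB9 was higher in ZZ over the whole library and in DZ in 6 of 10, and at E18 HOXA5 was higher in ZZ in 6 types and in DZ in 5. Since all types of a library come from the same embryos, these are not independent. At E18 dermomyotome-like cells differed more between the libraries than neural progenitor-like cells, which was not tested. The mean paralogue number in dermomyotome-like cells was 5.53 and 3.86, and in neural progenitor-like cells 6.26 and 6.00. Paralogues 7 and 8 made up 19.8 and 5.82 percent of HOX UMIs in dermomyotome-like and 26.1 and 19.8 percent in neural progenitor-like cells. Paralogue 9 made up 18.4 and 5.67 percent in dermomyotome-like and 28.3 and 29.0 percent in neural progenitor-like cells. Myocyte-like cells of E18-DZ had the lowest mean, 2.55, with 80.4% of their 107 HOX UMIs from paralogues 1 to 3. Breed, sow, capture and the level of dissection cannot be told apart within a stage.

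Regulators of the HOX clusters were followed beside the members. Of 13 tested upstream regulators (CDX factors, retinoic acid receptors and enzymes, and repressors of posterior identity) 1 rose from E16 to E18 and 0 fell. From E18 to E21, 2 rose and 5 fell, against 10.7% of all genes that rose and 10.4% that fell. From E21 to E28 3 fell and 0 rose, against 4.23% of all genes that fell and 4.31% that rose. From E16 to E18 the shares of all genes were 2.04% and 2.67%. CDX2 (log2 -7.51, SE 0.82, adjusted p = 0.00496), CDX1 (log2 -3.38, SE 0.66, adjusted p = 0.0158), LIN28A (log2 -5.62, SE 0.57, adjusted p = 0.00415) and NR6A1 (log2 -2.24, SE 0.24, adjusted p = 0.00320) fell from E18 to E21, and the retinoic acid receptors RARG (log2 1.12, SE 0.22, adjusted p = 0.0166) and RARA (log2 0.76, SE 0.15, adjusted p = 0.0176) rose. CDX2 was near 0 at E21 and passed the filter on low counts through earlier stages. Its fall, and the count of falls that holds it, are a description. LIN28B, an RNA-binding protein of early embryonic cells, was at 68.4 and 82.6 CPM at E16, 109 and 128 at E18, 36.2 and 37.2 at E21, then 9.88 and 11.8 at E28, log2 -1.78 (SE 0.10, adjusted p = 0.000487) from E18 to E21 and log2 -1.78 (SE 0.10, adjusted p = 0.00275) from E21 to E28. Of 11 chromatin regulators 1 rose from E16 to E18, 1 rose and 3 fell from E18 to E21, and 0 changed from E21 to E28. CBX2, a Polycomb subunit, gave log2 0.65 (SE 0.11, adjusted p = 0.0318) and then log2 -0.44 (SE 0.11, adjusted p = 0.0342), and EZH2, the Polycomb methyltransferase, log2 -0.43 (SE 0.11, adjusted p = 0.0342). KDM6B, which removes the methyl mark that EZH2 sets, gave log2 0.56 (SE 0.15, adjusted p = 0.0410). Of 9 TALE cofactors, the homeodomain partners of HOX proteins, 2 rose from E16 to E18, 2 rose from E18 to E21 and 2 fell from E21 to E28.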

How the data were processed

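Single-cell RNA-seq of 8 libraries was analysed, 1 for each stage and breed. The authors captured cells with 10x Chromium 3′ chemistry (v3), and the deposited values are raw UMI counts per gene and barcode from Cell Ranger (3.1.0 for E16 and 3.0.2 for the others, per the file headers), neither normalized nor corrected between libraries. Of 90688 barcodes, those kept had at least 200 genes, at most 30000 UMIs and at most 10% of UMIs from mitochondrial genes. The highest Scrublet scores were then removed (scanpy 1.11.5), at a rate of 0.8% for every 1000 barcodes of a library, 8247 cells in all. The study used DoubletFinder, which was not used here. Libraries shared 23 to 49 barcodes per pair, which were kept.

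Cells were gated by marker lists and named with -like. The authors' own cell labels were not used here. Counts were summed per library or per library and type (at least 20 cells) and tested with edgeR 4.0.16 (quasi-likelihood test, TMM, default low-count filter, breed or library as a covariate), with Benjamini-Hochberg adjustment over all genes tested and calls at 0.05. DESeq2 1.42.0 in R 4.3.3 was an alternative. Levels are counts scaled to 1000000 UMIs (CPM), and intervals are exact Poisson or binomial at 95%. A side with 0 UMIs was set to 3 counts. Computations used Python 3.11.15, and the test was tried on artificial counts first. Promoters came from RefSeq on Sscrofa11.1, the build that the study names.

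The members and lists were chosen with earlier results of these data known. All members could be named. Values in every library were given for up to 4 called members per direction at each step, up to 3 per direction within or between cell types, and every member over 4-fold apart between breeds. Of each other list up to 4 called genes with the largest change were named, and RARG, RARA and LIN28B were named outside this rule after their values were seen. Not found by symbol, and not analysed here, were among others RARB, KMT2A, KAT6A, BMI1, HOTAIRM1 and SALL4, and of the gate markers SOX2, SOX1, TUBB3, TWIST1, COL9A2, TNNT3, ACTA1, MYH6, MYL7, NPPA, HEMGN, GYPC and KRT19. Some items are not reported here.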

Additional observations from a re-analysis of the deposited data

Results flagged for a closer look

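HOXA10 had opposite breed differences at neighbouring stages. The log2 difference of DZ minus ZZ was 3.16 at E21 and -5.53 at E28, each from 1 library per breed. The difference between the stages was not tested.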

How the results depend on the processing

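No paired analysis was possible because the labels give no replicate numbers to pair by, though breed was a term of the stage fits and library a block between cell types. From E16 to E18, where 4 members were called in whole libraries, DESeq2 called 12, a mitochondrial limit of 5% 0 and sums without blood and endothelial cells 2, and leaving out a library gave 0 to 7. From E18 to E21 (7 called) leaving out a library gave 4 to 9. From E21 to E28 (1 called) DESeq2 called 6, no low-count filter 2 and no breed term 4, and leaving out a library gave 0 to 6. Within gated types (150 called) DESeq2 called 68, a mitochondrial limit of 5% 95 and cells thinned to 2000 UMIs 43, and leaving out a library gave 92 to 165. For sclerotome-like against dermomyotome-like cells (0 called) a minimum of 4 markers gave 1 and a lead of 1 marker 2, and leaving out a library gave 0 to 2. Thinning left 1 of 9 calls for neural progenitor-like and 0 of 14 for lateral plate-like against dermomyotome-like cells, 1 of 16 for endothelial-like cells and 1 of 13 for crest and glia-like against neural progenitor-like cells, where a minimum of 4 markers gave 7. For neuron-like against neural progenitor-like cells (3 called) no low-count filter gave 6. Leaving out a library gave 9 to 14 calls for lateral plate-like cells, with 9 without E16-DZ, and 5 to 14 for fibroblast-like against myogenic cells, with 13 called in all. Thinned sums hold fewer UMIs and leave out cells with fewer than 2000. The cause of the other changes was not tested. Shares of all genes under these other settings are not given, so the counts of members are a description. Of the single genes reported, the direction and the side of the threshold were kept in 1681 of 1874 other fits, 193 kept the direction alone and 0 reversed. Among 1744 fits without a library 1527 kept both, 216 the direction alone and 1 reversed, namely HOXB9 in sclerotome-like cells from E18 to E21 without E18-ZZ (log2 0.43, and -2.11 to 0.43 over the libraries left out). Where the library left out held too few cells of a type, the fit was unchanged and had to agree. Such fits are among the 1527, and all fits of lateral plate-like cells between stages were of this kind. For epithelial-like and fibroblast-like cells, too, no counted fit between stages left out a library of the compared stages. Fits that could not be made without a library are not counted.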
